A study of Homo sapiens with 6 samples.

Results

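The collagen chain genes were the protein-coding genes whose Ensembl identifiers carried, in GENCODE release 29, a symbol made of COL, a number, the letter A and a number with nothing after it. There were 44 such genes among the 58735 genes of the count table. The rule used no measured value, but it was chosen with earlier results of these data known. They were grouped by the structure their chains form into 11 fibrillar, 9 basement membrane and 10 FACIT genes, the last standing for fibril-associated collagens with interrupted helices, and 14 other genes. H9 cells, a line of human embryonic stem cells with a wild-type genotype, had been driven first to endoderm and then to the endoderm of the third pharyngeal pouch, called 3PPE. The H9 cells had been kept on feeder cells of mouse embryonic fibroblasts, and the differentiation began with Activin A and WNT3A and went on over Matrigel with retinoic acid, SB431542 (an inhibitor of TGF-beta receptors), BMP4 and the Wnt inhibitor IWP2, and all 6 cultures shared these steps. At day 7 they received either a negative control siRNA (siControl, 3 libraries) or an siRNA against HOXA3 (siHOXA3, 3 libraries) by lipofection, and bulk RNA was sequenced at day 9. The question of the design was what follows when HOXA3, a homeobox transcription factor of the pharyngeal pouches, is inhibited.

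Collagens are the main structural proteins of the extracellular matrix. Each molecule is wound from chains whose helical part repeats a unit of 3 residues that starts with glycine, and the chains of a molecule can come from the same gene or from several. Fibrillar collagens form the cables of mesenchyme, bone and cartilage. Type IV collagens form the sheet of the basement membrane under every epithelium, FACIT collagens decorate fibrils, and the remaining types form beaded filaments, short networks or membrane-anchored proteins. The chains are hydroxylated and folded in the endoplasmic reticulum, exported, trimmed, crosslinked, bound by integrins and discoidin domain receptors, and cut by metalloproteinases.

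The glycine repeat that defines the family is visible in the exons. Sequences of 5 coding exons of 54 bases each, 6 repeat units of 9 bases, are shown for the type I chains, which had high levels, for the 2 members with the smallest p-values, COL11A1 and COL9A3, and for a type IV chain. They were taken from GENCODE 29 on GRCh38 and are printed in the direction of the gene, with the glycine codon that opens each repeat unit in capitals.
COL1A1, exon 8, chr17:50197949-50198002, minus strand: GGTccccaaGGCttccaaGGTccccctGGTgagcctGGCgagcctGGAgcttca
COL1A2, exon 8, chr7:94404693-94404746, plus strand: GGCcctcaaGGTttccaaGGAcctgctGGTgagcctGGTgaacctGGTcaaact
COL11A1, exon 15, chr1:103008463-103008516, minus strand: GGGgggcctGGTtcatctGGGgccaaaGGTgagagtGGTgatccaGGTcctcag
COL9A3, exon 12, chr20:62824968-62825021, plus strand: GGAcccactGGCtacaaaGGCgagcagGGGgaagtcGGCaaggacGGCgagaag
COL4A1, exon 7, chr13:110211869-110211922, minus strand: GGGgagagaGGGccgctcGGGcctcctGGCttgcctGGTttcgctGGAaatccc
In each exon all 6 units of 9 bases opened with a glycine codon, and the COL11A1 exon holds a further one inside a unit.

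Among the inner coding exons of the 11 fibrillar genes, 84.2% had a length divisible by 9 and 48.64% were exactly 54 bases long. In the 19925 other protein-coding genes these shares were 13.6% and 0.41%. The basement membrane genes reached 51.2% and 4.38%, the FACIT genes 54.9% and 26.76%, and the other collagens 58.0% and 8.17%. The fibrillar class thus had the highest share of exons of 54 bases, but single genes of the FACIT class reached the fibrillar range. Exons of 54 bases were from 21 of 49 in COL1A1 to 33 of 58 in COL24A1 among the fibrillar genes. Among the FACIT genes they were from 4 of 63 in COL12A1 to 14 of 30 in COL9A2 and COL9A3. The fibrillar genes also held the longest repeats. The longest unbroken run of glycine units counted 337 to 343 in 9 of the 11 fibrillar genes, 216 in COL24A1 and 217 in COL27A1. In the type IV genes, whose helix has many breaks, the longest run counted 38 to 66 units. The type IX gene COL9A3 had a longest run of 113 units, and COL12A1, a very long chain mostly made of other domains, had 32.

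**Figure D1:**
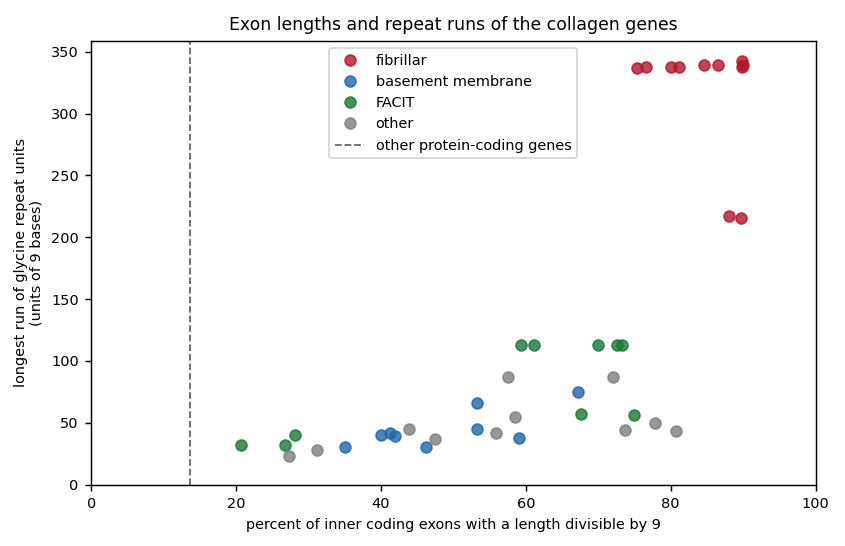
For each collagen gene with an inner coding exon, the percentage of inner coding exons whose length is divisible by 9 (horizontal axis) is plotted against the longest run of glycine repeat units in the coding sequence (vertical axis, units of 9 bases), coloured by class. The dashed line marks 13.6%, the share in other protein-coding genes, and the fibrillar genes lie at the upper right with runs of 216 to 343 units.

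Total counts ranged from 14117150 to 15282307 per library. A gene with no count could have had up to 3 counts, worth 0.197 to 0.211 CPM (counts scaled to a library of 1000000), a limit that covers counting error only. The targeted gene HOXA3 had 248, 240 and 236 counts in the siControl libraries and 159, 199 and 220 in the siHOXA3 libraries, so the groups touched (15.5 CPM in siControl 3 and in siHOXA3 3). Its log2 fold change was -0.28 with a standard error (SE) of 0.157 (adjusted p = 0.828 by edgeR's quasi-likelihood test with Benjamini-Hochberg adjustment), so a fall of its RNA in these libraries was not detected beyond the spread between them. With limma-voom and quality weights it was -0.34 (unadjusted p = 0.0315, adjusted p = 0.325). The study itself reported less HOXA3 after this siRNA, as RNA by qRT-PCR and as protein by Western blot. The library labelled siHOXA3 2 stood apart from the other 5. Deviations of its genes from their means over all 6 libraries had a Spearman correlation of -0.391 to transcript length, against 0.074 to 0.154 in the others. Calls of collagen genes that changed when this library was left out are given both ways. The labels call the RNA of a group a triplicate, and the study speaks of independent biological repeats without describing how those of the sequenced libraries were made. If they were not separate differentiations, the p-values measure a spread that may be technical. In bulk RNA, fewer cells of a type and less RNA per cell cannot be told apart.

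Of 12 markers of pouch endoderm and epithelium, 5 were abundant enough for the test (KRT8, KRT18, CDH1, EPCAM and HOXA3), and KRT8 and KRT18 had the highest levels, 3388 to 4331 CPM and 1264 to 1857 CPM. PAX1, FOXA2 and SOX17 had no more than 2 counts in any library, TBX1 0 to 10 counts, and FGF8 was at 0 in all 6, so most defining markers of endoderm and of the pouch were near 0. The summed level of this list was 5933 to 6153 CPM in siControl and 5621 to 7127 CPM in siHOXA3. Of 14 markers of mesenchyme and fibroblasts, which make most fibrillar collagen in tissues, 10 were tested, led by LUM (910 to 1335 CPM) and VIM (227 to 434 CPM), and PRRX1 was at 0. Their sum was 1517 to 1730 CPM in siControl and 1495 to 2029 CPM in siHOXA3. Of 12 amnion and trophoblast markers 11 were tested, led by GABRP and KRT7, with a sum of 3092 to 3324 CPM and 3186 to 3434 CPM. Neural crest markers (5 of 8 tested, ERBB3 and TFAP2B highest, FOXD3 at 0) summed to 104.6 to 124 CPM in siControl and 88.6 to 128 CPM in siHOXA3, and endothelial markers (4 of 8, KDR and CDH5 highest, PECAM1 and ERG at 0) to 115 to 127 CPM and 81.9 to 123 CPM. Cartilage and notochord markers (7 of 10, HAPLN1 and SOX9 highest, TBXT and NOTO at 0) summed to 446 to 515 CPM in siControl and 419 to 458 CPM in siHOXA3. Pluripotency markers (5 of 8, LIN28A and ZFP42 highest) summed to 1261 to 1315 CPM and 1320 to 1479 CPM, the one list of these 4 whose sums did not overlap.

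All 44 collagen genes had at least 1 count, and 35 passed edgeR's filter on low counts. Together they took 0.628% to 0.651% of the counts in the siControl libraries and 0.678%, 0.582% and 0.714% in siHOXA3 1, 2 and 3. The groups overlapped in this share. Levels of different genes were compared as CPM per kilobase of exon, since longer genes collect more reads. On this scale 6 genes held 80.8% to 82.1% of the summed collagen level in every library, and by their mean over the 6 libraries their order was COL1A1, COL3A1, COL1A2, COL12A1, COL5A1 and COL5A2. All but COL12A1 were fibrillar.

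**Figure D2:**
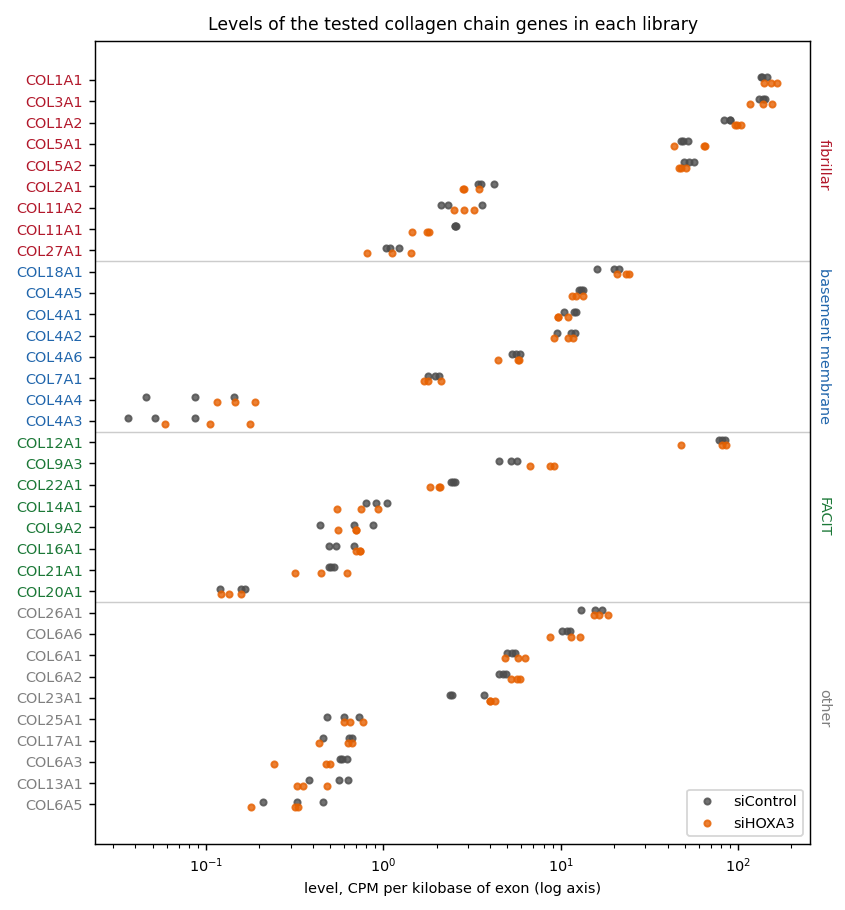
Level of the 35 tested collagen chain genes in each of the 6 libraries, as CPM per kilobase of exon on a log axis, with a point per library (siControl grey, siHOXA3 orange) and genes grouped by class and ordered by mean level. COL1A1, with a mean of 145.8, stands at the top and COL4A3, with 0.0859, at the bottom, and the points of the groups lie on each other for most genes.

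COL1A1, COL3A1 and COL1A2, the chains of the most common fibrils of soft tissue, had mean levels of 145.8, 137.0 and 93.6 CPM per kilobase, ranks 155, 172 and 290 among the 16561 genes tested. The COL1A1 and COL3A1 levels overlapped from library to library (134.7 to 166.5 and 116.1 to 155.0), so their order could not be told from these libraries. COL12A1, whose product binds to type I fibrils, followed with 76.3 CPM per kilobase. COL5A1 (53.7) and COL5A2 (50.7), which code for the chains of the type V collagen that starts type I fibrils, were close to each other. Next came the basement membrane gene COL18A1 (21.0), whose chain is the source of endostatin, and COL26A1 (16.0), whose product is known from the testis and ovary. The type IV genes COL4A5, COL4A1 and COL4A2 had 12.7, 10.8 and 10.8 CPM per kilobase, and COL6A6, a type VI chain, had 10.9. The order depended on the length used. With the longest transcript as length, COL1A2 (174.3) exceeded COL3A1 (168.3), COL4A2 (32.0) exceeded COL18A1, and COL4A1 (24.1) and COL4A5 (23.2) lay above COL26A1.

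By class, the fibrillar genes held 70.5% to 71.5% of the summed level per kilobase in siControl and 69.9% to 74.5% in siHOXA3. The FACIT genes held 13.03% to 14.4% in siControl, and in siHOXA3 1, 2 and 3 they held 14.1%, 9.51% and 12.4%. The basement membrane genes held 8.72% to 9.73% and 8.86% to 9.39%, and the other genes 6.11% to 6.25% and 6.16% to 6.92%. The ranges of the groups overlapped for all 4 classes, and the low FACIT share was that of siHOXA3 2, the library that stood apart. With the longest transcript as the length, the fibrillar share over all libraries was 72.1% in place of 71.6%, the basement membrane share 12.1% in place of 9.18%, and the FACIT share 10.5% in place of 12.8%, which turned the order of the last 2 classes.

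**Figure D3:**
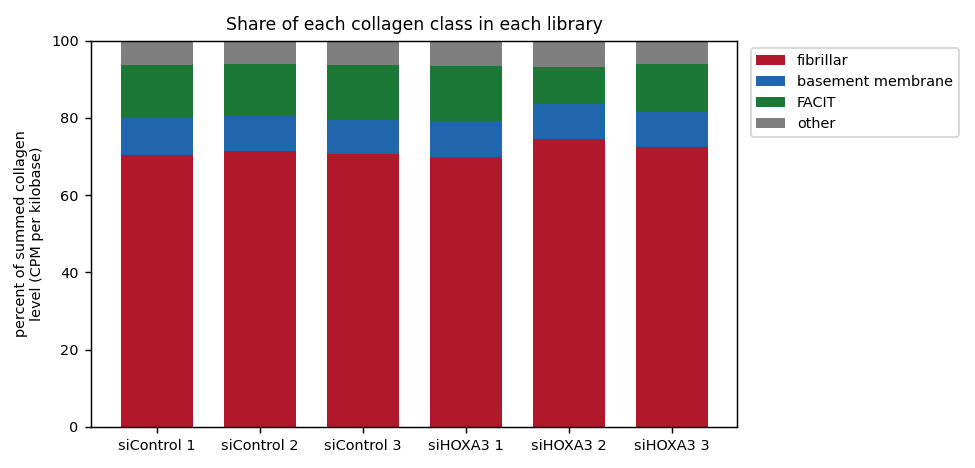
Stacked bars give the percentage of the summed collagen level (CPM per kilobase of exon) taken by each class in each library. Fibrillar genes take 69.9% to 74.5% everywhere, and the FACIT part is smallest in siHOXA3 2, at 9.51%.

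Between the groups, none of the 35 tested collagen genes passed an adjusted p of 0.05. The smallest adjusted p was 0.458 by edgeR's quasi-likelihood test with Benjamini-Hochberg adjustment, in a comparison in which 1 of 16561 genes passed, 0.00604% of those tested. DESeq2, limma-voom with quality weights and edgeR with no filter each called 1 collagen gene, COL9A3. At an unadjusted p under 0.05, 6 of the 35 were found (17.1%), against 6.36% of all genes. COL9A3, COL23A1 and COL6A2 were higher in siHOXA3 and COL11A1, COL22A1 and COL6A3 were lower, where all genes gave 3.79% higher and 2.57% lower. The groups did not overlap for 8 of the 35 (22.9%), against 13.3% of all genes. These were the same 6 genes and COL1A2 and COL16A1, which makes 5 higher and 3 lower, where all genes gave 6.41% higher and 6.88% lower. The median log2 fold change of the 35 was -0.02, beside 0.00 over all genes, with 16 above 0 and 19 below (50.4% and 49.6% of all genes). It was 0.01 for the 9 tested fibrillar genes, -0.05 for 8 basement membrane genes, -0.12 for 8 FACIT genes and 0.06 for 10 other genes. Without siHOXA3 2, the counts were 8 of 35 at an unadjusted p under 0.05 (22.9%, with 10.7% of all genes) and 14 without overlap (40%, with 27.6% of all genes), and the median was 0.07. Of the 8, 7 were higher and 1 lower, where all 17144 genes tested in that fit gave 894 higher and 934 lower. Of the 14, 11 were higher and 3 lower, where all genes gave 2369 higher and 2368 lower. COL11A1, COL9A3 and COL23A1 had an unadjusted p under 0.05 with and without that library. COL22A1, COL6A2 and COL6A3 had one only with it, and COL1A1, COL1A2, COL5A1, COL18A1 and COL4A3 only without it. The class medians without it were 0.10 for fibrillar, 0.04 for basement membrane, 0.05 for FACIT and 0.16 for other genes. Without siControl 2, 2 of the 35 had an unadjusted p under 0.05, beside 3.75% of all genes in that fit.

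**Figure D4:**
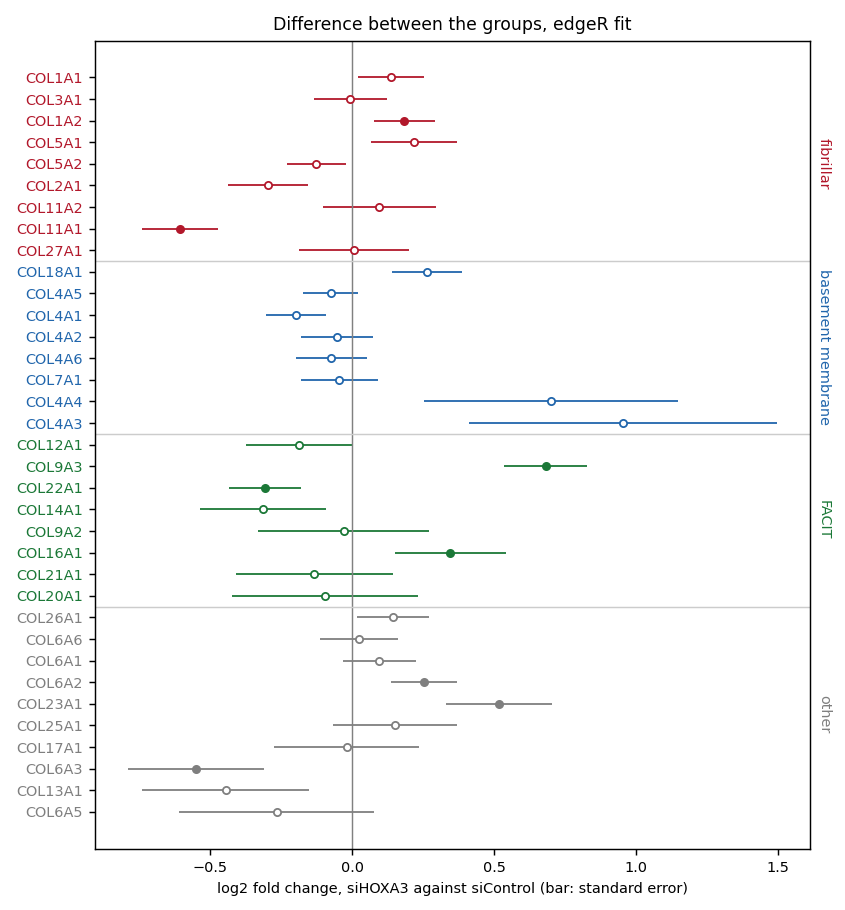
Log2 fold change of siHOXA3 against siControl for each tested collagen gene from the edgeR fit, with its SE as a bar, coloured by class. Filled points are genes whose 3 siControl and 3 siHOXA3 libraries did not overlap, the lowest being COL11A1 at -0.61 and the highest COL9A3 at 0.68, and open points are genes whose groups overlapped.

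COL11A1 was the fibrillar gene with the clearest difference. It codes for a chain of type XI collagen, which builds the core of cartilage fibrils and is also found in other embryonic tissues (ENSG00000060718, chromosome 1 from 102876467 to 103108872, minus strand of GRCh38). Its levels were 23.3, 23.1 and 22.9 CPM in siControl 1, 2 and 3 and 16.4, 13.1 and 16.1 CPM in siHOXA3 1, 2 and 3. Every siHOXA3 library was below every siControl library. The siControl counts of 347, 349 and 350 lay closer together than counting error alone usually leaves them. Their SD therefore understates the spread to be expected between libraries. The mean was 23.1 ± 0.187 CPM (SD, n = 3) in siControl and 15.2 ± 1.80 CPM (SD, n = 3) in siHOXA3. The log2 fold change was -0.61 (SE 0.134, unadjusted p = 0.00085, adjusted p = 0.466 by edgeR's quasi-likelihood test with Benjamini-Hochberg adjustment). Without siHOXA3 2 it was -0.51, and over the 14 alternatives run it stayed between -0.66 and -0.51 with an unadjusted p of 0.0045 at most and an adjusted p from 0.0591 to 0.997.

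The chains that share molecules with COL11A1 had smaller differences. COL11A2, another chain of type XI collagen, had 14.3, 15.5 and 24.2 CPM in siControl and 16.8, 19.2 and 21.8 CPM in siHOXA3, with a log2 fold change of 0.10 (SE 0.198). COL2A1, the chain of cartilage fibrils that is also used in type XI collagen, had 23.6, 28.0 and 22.7 CPM in siControl and 18.7, 18.9 and 23.0 CPM in siHOXA3, with a log2 fold change of -0.30 (SE 0.140, adjusted p = 0.781 by edgeR's test). Its groups overlapped only through siHOXA3 3, which exceeded siControl 3. Per kilobase, COL11A1 stood at 0.703 to 1.21 times COL11A2 in siControl and 0.507 to 0.720 times in siHOXA3, ranges that overlapped. The difference in fold change between these chains was not tested.

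The type I genes had slightly higher means in siHOXA3. COL1A2 (ENSG00000164692, chromosome 7 from 94394561 to 94431232, plus strand) had 1006, 1005 and 924 CPM in siControl and 1152, 1105 and 1076 CPM in siHOXA3. All 3 siHOXA3 libraries lay above siControl, with a log2 fold change of 0.18 (SE 0.107, adjusted p = 0.828 by edgeR's test), and without siHOXA3 2 it was also 0.18 (unadjusted p = 0.0197, adjusted p = 0.373). COL1A1 (ENSG00000108821, chromosome 17 from 50183289 to 50201632, minus strand) had 1346, 1423 and 1323 CPM in siControl and 1497, 1368 and 1635 CPM in siHOXA3, and its groups overlapped through siHOXA3 2 (log2 fold change 0.14, SE 0.116). Without that library they were separate, at 0.20 (unadjusted p = 0.0146, adjusted p = 0.349 by edgeR's test). A type I molecule holds a pair of COL1A1 chains and a COL1A2 chain. Per kilobase, COL1A1 was 1.52 to 1.63 times COL1A2 in siControl and 1.41 to 1.73 times in siHOXA3.

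COL5A1 was the fibrillar gene whose call at an adjusted p of 0.05 changed without the library that stood apart. Its levels were 587, 547 and 532 CPM in siControl and 728, 486 and 723 CPM in siHOXA3. siHOXA3 1 and 3 were above every siControl library and siHOXA3 2 was below. With all libraries the log2 fold change was 0.22 (SE 0.152, adjusted p = 0.843 by edgeR's quasi-likelihood test), and without siHOXA3 2 it was 0.38 (SE 0.0698, adjusted p = 0.0291 by the same test), so that COL5A1 passed when that library was left out. Its partner COL5A2 had 368, 394 and 422 CPM in siControl and 356, 348 and 379 CPM in siHOXA3, with a log2 fold change of -0.13 (SE 0.104). COL3A1, a neighbour of COL5A2 on chromosome 2 in tail-to-tail order at a distance of 19149 bases, had 967, 947 and 890 CPM in siControl and 791, 946 and 1056 CPM in siHOXA3, with a log2 fold change of -0.01, whose sign changed under 5 of 14 alternatives.

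The mesenchymal markers are set beside the fibrillar genes, because the same cells can make both. Of the 10 tested markers of mesenchyme and fibroblasts, VIM, THY1 and DCN had an unadjusted p under 0.05 and were higher in siHOXA3, with log2 fold changes of 0.50, 0.41 and 0.47 (30%, beside 3.79% higher and 2.57% lower of all genes). The VIM level was 227, 259 and 265 CPM in siControl and 299.5, 434 and 327 CPM in siHOXA3. LUM, the most abundant of the list, was at -0.05, and the median of the 10 was 0.21. Without siHOXA3 2, VIM, THY1 and PDGFRB were higher and LUM lower at an unadjusted p under 0.05 (40%, beside 10.7% of all genes in that fit). Of the 5 tested markers of the neural crest, which gives rise to mesenchyme of the pharyngeal region, TFAP2B (0.60, unadjusted p = 0.00186) and NGFR (0.87, unadjusted p = 0.0084) were higher in siHOXA3 (40%, beside 6.36% of all genes in either direction), and the median was 0.44. Both were also higher at an unadjusted p under 0.05 without siHOXA3 2 (40%, beside 10.7% of all genes in that fit). None passed the adjusted p by edgeR. The part of such cells in the collagen values was not tested.

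Among the basement membrane genes no group was separated. The type IV genes lie in head-to-head pairs on 3 chromosomes, with starts on opposite strands, and the chains of a pair are built into shared molecules. How close the starts lie depended on the annotation. In the RefSeq promoter windows (GRCh38.p14) those of COL4A1 and COL4A2 had 126 bases between them, while the genes overlapped by 1422 bases in GENCODE 29. Those of COL4A4 and COL4A3 had 418 bases between them in RefSeq and 111 in GENCODE 29. For COL4A6 and COL4A5 these values were 379 and 346. The pair on chromosome X is shown as an example of the arrangement, because its shared stretch within the RefSeq windows lay outside the exons of both annotations. The sequence is of the plus strand, with CCAAT on either strand in capitals.
COL4A6 and COL4A5, chrX:108439588-108439708: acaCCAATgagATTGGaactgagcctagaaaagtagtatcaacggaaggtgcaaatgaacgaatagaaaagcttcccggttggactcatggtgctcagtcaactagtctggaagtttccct
This stretch held 44.6% G and C and 2 matches to CCAAT, 1 on each strand.

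COL4A1 and COL4A2 had almost the same level per kilobase of exon. COL4A1 (ENSG00000187498) had 176, 180 and 155 CPM in siControl and 161, 141 and 143 CPM in siHOXA3, and COL4A2 had 232, 220 and 183 CPM and 225, 177 and 211 CPM. Per kilobase, COL4A1 was 0.993 to 1.11 times COL4A2 in siControl and 0.889 to 1.05 times in siHOXA3. With the longest transcript as the length, the ratio was 0.745 to 0.831 and 0.667 to 0.784. The log2 fold changes were -0.20 (SE 0.105) and -0.05 (SE 0.126), and both groups overlapped. COL4A5 and COL4A6, on chromosome X, were unequal, COL4A5 being 2.21 to 2.39 times COL4A6 per kilobase in siControl and 2.11 to 2.60 times in siHOXA3, and their log2 fold changes were -0.08 and -0.07. COL4A3 and COL4A4, whose chains form the mature membrane of the kidney glomerulus, were near the floor with 5 to 23 and 7 to 27 counts. Their log2 fold changes of 0.95 (SE 0.543) and 0.70 (SE 0.448) were the largest of the class and the least certain. Without siHOXA3 2 that of COL4A3 was 1.27 (SE 0.574, unadjusted p = 0.0404, adjusted p = 0.444 by edgeR's test).

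COL18A1 (chromosome 21 from 45405137 to 45513720, plus strand) had 181, 169 and 137 CPM in siControl and 199, 178 and 208 CPM in siHOXA3. The groups overlapped through siHOXA3 2, which lay below siControl 1, and the log2 fold change was 0.26 (SE 0.122, unadjusted p = 0.0535, adjusted p = 0.781 by edgeR's test). Without that library the groups were separate and the value was 0.32 (SE 0.0971, unadjusted p = 0.0051, adjusted p = 0.262 by the same test). Exons of COL18A1 and of SLC19A1 on the opposite strand share 1401 bases, and the strand setting of the counting is unknown, so reads there cannot be assigned. COL7A1, the anchoring fibril of skin, had 19.7 to 22.7 CPM in siControl and 18.8 to 23.4 CPM in siHOXA3, with a log2 fold change of -0.05.

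Promoter windows of 300 bases, 250 before and 50 after the start, were matched for 32 of the 44 genes, leaving COL1A1, COL1A2, COL2A1, COL3A1, COL5A2, COL9A3, COL14A1, COL20A1, COL22A1, COL6A1, COL6A5 and COL8A1. On either strand, CCAAT stood in 9 of the 32 windows (28.1%) and in 35.7% of the windows of all 27305 genes. GGGCGG stood in 17 (53.1%, all genes 44.5%), and TATAAA in 5 (15.6%, beside 12.0% of all genes). TAATTA, a core shared by many homeodomain factors, stood in 0 of the 32 and in 5.0% of all. These letters are not sites of binding, and a window without them says nothing of a factor.

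COL9A3 had the smallest p of all collagen genes. It codes for a chain of type IX collagen, which coats the fibrils of cartilage and of the vitreous body (ENSG00000092758, chromosome 20 from 62816244 to 62841159, plus strand). Its levels were 27.3, 25.3 and 21.8 CPM in siControl and 44.4, 42.3 and 32.5 CPM in siHOXA3. Every siHOXA3 library was above every siControl library, with means of 24.8 ± 2.79 CPM and 39.7 ± 6.37 CPM (SD, n = 3 each), a ratio of 1.6. The log2 fold change was 0.68 (SE 0.146, unadjusted p = 0.000666, adjusted p = 0.458 by edgeR's quasi-likelihood test with Benjamini-Hochberg adjustment). The adjusted p was 0.0351 with DESeq2, 0.0486 with limma-voom and quality weights and 0.0671 by edgeR without siHOXA3 2, and over the 14 alternatives it ran from 0.00175 to 0.997. The log2 fold change stayed between 0.50 and 0.81 and was smallest, 0.50, under the correction for length and GC content. Exons of COL9A3 and of TCFL5 on the opposite strand share 45 bases.

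The other type IX genes had low levels. COL9A2 had 2.89, 1.85 and 3.67 CPM in siControl and 2.96, 2.33 and 2.96 CPM in siHOXA3 (log2 fold change -0.03, SE 0.300). COL9A1 had 4 to 13 counts, too few for the test. Per kilobase, COL9A3 was 5.16 to 11.9 times COL9A2 in siControl and 9.56 to 15.8 times in siHOXA3, so the chains of this molecule were not equal in either group. The difference between the fold changes of COL9A3 and COL9A2 was not tested.

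Of the remaining FACIT genes, COL22A1 and COL16A1 had groups that did not overlap. COL22A1, found at junctions of muscle and tendon, had 19.4, 18.8 and 19.7 CPM in siControl and 16.3, 14.4 and 16.1 CPM in siHOXA3. It was lower in every siHOXA3 library, with a log2 fold change of -0.31 (SE 0.128, unadjusted p = 0.0351, adjusted p = 0.741 by edgeR's test), and without siHOXA3 2 it was -0.26 with an unadjusted p of 0.0671. COL16A1 had 6.31, 4.56 and 4.98 CPM in siControl and 6.46, 6.85 and 6.83 CPM in siHOXA3. The gap between the groups was small beside the spread of siControl (log2 fold change 0.35, SE 0.197, adjusted p = 0.828 by edgeR's test). COL12A1 had 1012, 978 and 1053 CPM in siControl and 1069, 595 and 1007 CPM in siHOXA3. Only siHOXA3 2 was low, and the log2 fold change of -0.19 (SE 0.187) became 0.03 (SE 0.0701) without it. Under the correction for length and GC content it was -0.14 (SE 0.106).

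**Figure D5:**
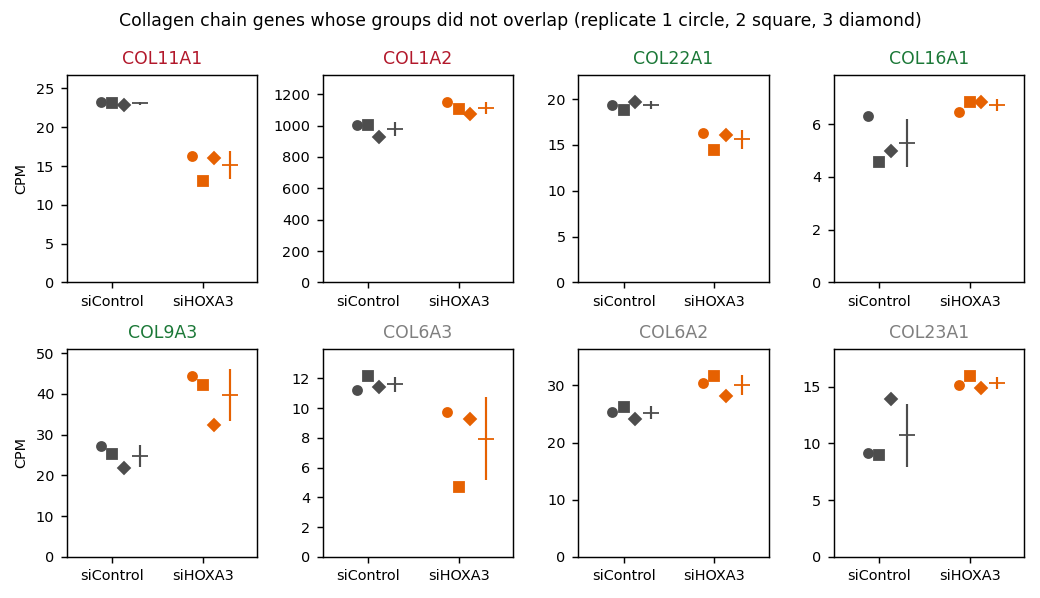
CPM in each library for the 8 collagen genes whose groups did not overlap, with circles, squares and diamonds for replicates 1, 2 and 3 (siControl grey, siHOXA3 orange) and the mean with its SD beside them, on axes that start at 0. COL11A1, COL22A1 and COL6A3 are lower in siHOXA3 and the other 5 are higher, COL9A3 most, at 1.6 times.

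In the class of other collagens, the type VI genes, whose chains form the beaded filaments around cells, went in different directions. COL6A2 (chromosome 21 from 46098097 to 46132849, plus strand) had 25.4, 26.3 and 24.0 CPM in siControl and 30.4, 31.7 and 28.2 CPM in siHOXA3. It was higher in every siHOXA3 library, with a log2 fold change of 0.25 (SE 0.115, unadjusted p = 0.0494, adjusted p = 0.781 by edgeR's test), which was 0.12 under the correction for length and GC content and 0.21 with an unadjusted p of 0.0801 without siHOXA3 2. COL6A1, its neighbour on chromosome 21 in the same direction, had 29.5, 26.6 and 28.2 CPM in siControl and 33.6, 25.9 and 30.7 CPM in siHOXA3 (log2 fold change 0.10, SE 0.128). COL6A3 (chromosome 2 from 237324003 to 237414375, minus strand) had 11.2, 12.2 and 11.4 CPM in siControl and 9.76, 4.72 and 9.30 CPM in siHOXA3. All siHOXA3 libraries were lower and siHOXA3 2 lowest, with a log2 fold change of -0.55 (SE 0.240, unadjusted p = 0.0428, adjusted p = 0.762 by edgeR's test) that was -0.29 with an unadjusted p of 0.0994 without siHOXA3 2. Per kilobase, COL6A1 was 8.05 to 9.66 times COL6A3 in siControl and 12.1 to 20.2 times in siHOXA3, ranges that did not overlap.

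A type VI molecule takes a COL6A1, a COL6A2 and a chain of the COL6A3 kind, which COL6A5 and COL6A6 also code for. COL6A6 was by far the highest of these, with 99.0, 106 and 110 CPM in siControl and 111, 84.2 and 125 CPM in siHOXA3 and a log2 fold change of 0.02 (SE 0.136). Per kilobase it made up 91.6% to 92.9% of the 3 genes together in siControl and 93.3% to 95.4% in siHOXA3. COL6A5 had 1.73 to 4.39 CPM over the 6 libraries. COL6A3 was thus a small part of the sum of these chains. COL6A6 also exceeded COL6A1 and COL6A2, at 10.9 CPM per kilobase beside 5.44 and 5.14.

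COL23A1 was the membrane-anchored collagen with the highest level (chromosome 5 from 178237618 to 178590555, minus strand). It had 9.20, 8.99 and 13.9 CPM in siControl and 15.1, 16.0 and 14.9 CPM in siHOXA3. The siHOXA3 libraries lay close together and above siControl, of which replicate 3 was near them. The log2 fold change was 0.52 (SE 0.185, unadjusted p = 0.0174, adjusted p = 0.720 by edgeR's test), and over the 14 alternatives it stayed between 0.36 and 0.75, with an unadjusted p under 0.05 in 11 of them. The other membrane collagens COL13A1, COL17A1 and COL25A1 had log2 fold changes of -0.45, -0.02 and 0.15 with groups that overlapped. COL26A1 had 53.8, 49.3 and 41.1 CPM in siControl and 52.1, 58.7 and 48.7 CPM in siHOXA3 (log2 fold change 0.14, SE 0.127).

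The 9 genes too low for the test were COL5A3, with 0 to 7 counts per library, COL24A1 with 0 to 7, COL15A1 with 2 to 13, COL9A1 with 4 to 13, COL19A1 with 2 to 13, COL8A1 with 3 to 12, COL8A2 with 0 to 3, COL10A1 with 1 to 8 and COL28A1 with 1 to 12. They include COL10A1, the marker of hypertrophic cartilage, and COL8A1 and COL8A2, the chains of the network under the corneal endothelium. At this depth a difference in any of them was not detectable.

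The enzymes that fold and hydroxylate collagen included abundant genes whose groups overlapped. The summed level of the 20 genes was 2337 to 2374 CPM in siControl and 2294 to 2324 CPM in siHOXA3, ranges that did not overlap. Of 20 genes 19 were tested, 1 had an unadjusted p under 0.05 (5.26%, all genes 6.36%), none passed the adjusted p by edgeR, and the median log2 fold change was -0.04. CRTAP and FKBP14 were lower without overlap, and 0 genes were higher (10.5%, beside 13.3% of all genes in either direction). P4HB, a subunit of prolyl 4-hydroxylase, had 532 to 556 CPM in siControl and 483 to 563 CPM in siHOXA3. SERPINH1, the collagen chaperone of the endoplasmic reticulum, had 539 to 562 CPM and 515 to 554 CPM. P3H3, a prolyl 3-hydroxylase, was the gene with the small p (42.2, 31.3 and 26.2 CPM in siControl, 38.8, 52.0 and 44.6 CPM in siHOXA3, log2 fold change 0.44, SE 0.174), and its groups overlapped. Without siHOXA3 2 it was 0.32 with an unadjusted p of 0.0838, and P4HA2, lower in siHOXA3, was the member under 0.05 (5.26%, beside 10.7% of all genes in that fit). In that setting 1 of the 19 was higher and 8 were lower without overlap (47.4%, beside 27.6% of all genes), and the median was -0.07.

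For export and trimming of procollagen, 13 of 16 genes were tested, 1 of them had an unadjusted p under 0.05 (7.69%, beside 6.36% of all genes) and the median was -0.05. This was SEC24D, a coat protein of the vesicles that carry procollagen, with 124, 105 and 88.3 CPM in siControl and 87.9, 82.7 and 90.5 CPM in siHOXA3 (log2 fold change -0.28, SE 0.126), and without siHOXA3 2 it was at -0.25 with an unadjusted p of 0.0517. SAR1A and SEC23A, also of this coat, had log2 fold changes of 0.01 and -0.05. Without siHOXA3 2, BMP1 was the member of this list with an unadjusted p under 0.05, higher in siHOXA3 (7.69%, beside 10.7% of all genes in that fit). The summed level of the 16 genes was 850 to 889.8 CPM in siControl and 817 to 842.5 CPM in siHOXA3, ranges that did not overlap. For crosslinking and fibril assembly, 11 of 12 were tested, 2 had an unadjusted p under 0.05, both higher (18.2%, beside 6.36% of all genes in either direction), and the median was 0.09. LOXL3, a lysyl oxidase, had 18, 11 and 17 counts in siControl and 24, 32 and 23 in siHOXA3 (log2 fold change 0.82, SE 0.358), and DCN, a proteoglycan on fibrils, had 22.0, 29.6 and 32.5 CPM and 26.9, 45.2 and 44.3 CPM (0.47, SE 0.203). Without siHOXA3 2 their unadjusted p-values were 0.144 and 0.214, and LOXL2 and LUM were the members under 0.05 (18.2%, beside 10.7% of all genes in that fit). LUM and SPARC, the most abundant of this list, had log2 fold changes of -0.05 and 0.09.

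Of the 5 pathway lists, the collagen receptors had the highest share of genes with a small p. Of 13 genes 10 were tested, and 4 had an unadjusted p under 0.05, all lower in siHOXA3 (40%, beside 6.36% of all genes in either direction and 2.57% lower). None passed the adjusted p by edgeR, the smallest being 0.458, and the median log2 fold change was -0.21. ITGA2, the integrin chain for collagen on epithelium and platelets, had 21.6, 20.8 and 17.9 CPM in siControl and 14.3, 8.51 and 8.94 CPM in siHOXA3 (log2 fold change -0.93, SE 0.200, unadjusted p = 0.00071). Every siHOXA3 library was below siControl. ITGA1, the other widespread integrin chain for collagen, was at -0.41 (SE 0.145), DDR2, the discoidin domain receptor for fibrillar collagen, at -0.57 (SE 0.192), and ADGRG6, a receptor that binds type IV collagen, at -0.34 (SE 0.114). For ITGA1 and DDR2 too, and for ADGRG6, the groups did not overlap, nor did they for ITGA10, which had 12 to 23 counts. In all, 5 of the 10 tested were lower without overlap (50%, beside 13.3% of all genes in either direction and 6.88% lower). The adjusted p of ITGA2 was 0.0252 with DESeq2, 0.0566 with limma-voom and 0.0819 by edgeR without siHOXA3 2. The shared partner of the integrin chains, ITGB1, was not lower (428 to 463 CPM in siControl, 454 to 485 CPM in siHOXA3, log2 fold change 0.07). Without siHOXA3 2, ITGA1, ITGA2, DDR2 and ADGRG6 again had an unadjusted p under 0.05, 4 of 11 tested (36.4%, beside 10.7% of all genes). The median of the list turned to 0.045 in that setting. LAIR1, an inhibitory receptor of immune cells, was at 0 in every library.

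Among 15 genes of collagen degradation 11 were tested, with 2 higher and 1 lower at an unadjusted p under 0.05 (27.3%, beside 6.36% of all genes) and a median of 0.12. MMP2, which cuts denatured and type IV collagen, had 242, 253 and 244 CPM in siControl and 299.5, 293 and 298 CPM in siHOXA3 (log2 fold change 0.27, SE 0.0937, unadjusted p = 0.0156, adjusted p = 0.720 by edgeR's test). MMP9, of the same kind, had 19, 38 and 23 counts in siControl and 59, 52 and 37 in siHOXA3 (0.93, SE 0.325). TIMP3, an inhibitor of metalloproteinases bound to the matrix, had 96.2, 90.9 and 79.8 CPM and 76.0, 66.6 and 55.7 CPM (-0.43, SE 0.129). MMP2 and TIMP3 did not overlap between the groups and neither did MMP9, whose lowest siHOXA3 level was 2.61 CPM and highest siControl level 2.51 CPM. With CTSK and RECK, 4 of the 11 tested were higher and 1 lower without overlap (45.5%, beside 13.3% of all genes). MMP14, the membrane-anchored activator of MMP2, was at 0.12 with overlapping groups, and MMP13 was at 0 in every library. The lists were chosen with earlier results of these data known, and no test was made of whether a list differed from other genes.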

How the data were processed

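Bulk RNA-seq of 3 siControl and 3 siHOXA3 libraries was analysed, grouped by their labels. The authors deposited raw counts of reads per gene, as whole numbers. Per the labels and the study's methods, libraries were made by the LM-Seq protocol (a SMARTER kit is also named) and sequenced as single reads. The aligner, counting program and strand setting are not given in the sources used here. The submitters' processing notes name GRCm38 and mm10, builds of the mouse, while all identifiers were human genes of GENCODE 29.

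Counts were filtered with filterByExpr (16561 of 58735 genes kept), normalized by TMM and tested with edgeR 4.0.16 (robust quasi-likelihood, two-sided, Benjamini-Hochberg over all genes tested) in R 4.3.3. CPM use normalized library sizes, and levels per kilobase use the union of exons. A comparison of 3 against 3 libraries cannot give an exact permutation p under 0.1. The method was tested on simulated counts with 200 changed genes.

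Alternatives were DESeq2 1.42.0, upper-quartile or library size scaling, no filter, CPM above 1 in at least 3 libraries, a replicate block, limma-voom (limma 3.58.1) with quality weights, each library left out, and, chosen after seeing the data, a length and GC correction (mgcv 1.9.3). Named collagens were the 3 highest of each class per kilobase, those with an unadjusted p under 0.05 or without overlap, their partner chains and those too low for the test, and further members are named to complete a molecule or a class. Of pathway lists the 2 highest per kilobase and those with an unadjusted p under 0.05 are named, and of marker lists the 2 highest and those at 0, except a marker that is not reported here. Members and lists were chosen with earlier results of these data known. Promoters came from RefSeq, using the window furthest upstream of each gene.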

Additional observations from a re-analysis of the deposited data

How the results depend on the processing

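The same-numbered libraries did not deviate together in every pair (correlations of 0.142, 0.104 and -0.059), so the replicate numbers were not taken to pair the samples. With the replicate block, 4 genes passed an adjusted p of 0.05 in place of 1, and no collagen gene did.

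DESeq2 called 35 genes, edgeR with no filter 100 and limma-voom 47, and edgeR with each library left out called 1 to 24. Genes with an unadjusted p under 0.05 were 1203 higher and 659 lower with no filter, 1183 higher and 1023 lower with limma-voom, and 384 to 894 higher and 245 to 934 lower with each library left out. Collagen genes with an unadjusted p under 0.05 were 13 with limma-voom and 2 to 8 with each library left out, and 0 to 1 of them passed the adjusted p. The median log2 fold change of the collagens was 0.062 with limma-voom and -0.085 to 0.074 with each library left out, and that of the fibrillar genes 0.147 and -0.010 to 0.099. With the longest transcript as length, the basement membrane share was 12.1%, the FACIT share 10.5% and the share of the other genes 5.27%.

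Of the 489 alternative values of single collagen genes, 449 had the sign and call of the reported value, 4 passed the adjusted p of 0.05 (COL9A3 with DESeq2, limma-voom or no filter, and COL5A1 without siHOXA3 2) and 36 changed sign. With limma-voom the log2 fold change became 0.014 for COL4A2, 0.039 for COL4A6, 0.001 for COL7A1, 0.264 for COL9A2, 0.004 for COL12A1, 0.062 for COL17A1, 0.025 for P4HB and -0.057 for SAR1A. With upper-quartile scaling it became 0.015 for COL3A1 and 0.002 for COL17A1, with the length and GC correction 0.063 and 0.023. COL27A1 became -0.003 with library size only and -0.022 with the replicate block, which gave 0.003 for COL9A2. With each library left out in turn, the value ran from -0.104 to 0.099 for COL3A1, from -0.045 to 0.368 for COL11A2, from -0.214 to 0.190 for COL27A1, from -0.149 to 0.037 for COL4A2, from -0.137 to 0.039 for COL4A6, from -0.143 to 0.016 for COL7A1, from -0.256 to 0.213 for COL9A2, from -0.340 to 0.030 for COL12A1, from -0.407 to 0.074 for COL21A1, from -0.507 to 0.041 for COL6A5, from -0.103 to 0.164 for COL6A6, from -0.172 to 0.149 for COL17A1, from -0.207 to 0.077 for LUM, from -0.083 to 0.022 for P4HB and from -0.081 to 0.074 for SAR1A. The cause of these changes was not tested. Depth limits what can be said of COL4A3, COL4A4 and the 9 untested genes.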
